A study of Mus musculus with 4 samples.

Results

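The 59 genes described here encode proteins of DNA replication and of mitosis. They were taken by symbol from the count tables, all 59 were found among the 24015 symbols listed, and all 59 had enough reads to be tested. By role, 28 are replication genes and 31 are mitosis genes. The RNA came from mouse hematopoietic stem and progenitor cells (HSPC) purified by sorting, with 2 libraries from caNIK mice and 2 from control mice. In caNIK mice, a NIK that TRAF3 cannot target, inserted at the Rosa locus behind a loxP-flanked stop, was switched on by Vav-iCre, a Cre driven by a promoter active throughout the blood system. Map3k14 encodes NIK, which activates the non-canonical NF-kB pathway and which TRAF3 normally keeps scarce. Which alleles the control mice carried, the age and number of animals, and the sorted surface markers are not stated in the labels.

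A dividing cell copies its genome once. Licensing factors load the MCM helicase on origins in G1 phase, the helicase is activated in S phase, and polymerases follow with a sliding clamp. Mitosis then separates the copies under CDK1 with its cyclins, the Aurora and Polo kinases, the spindle and the anaphase-promoting complex. Transcription of the replication genes is known to depend on E2F factors bound near the start site in G1 and S phase. Mitosis genes are known to be held by the DREAM and MuvB complexes, which bind the cell cycle homology region (CHR), and to be activated through nearby CCAAT boxes bound by NF-Y. Most long-term stem cells are quiescent, whereas progenitors cycle, so in sorted HSPC these transcripts are usually read as a measure of division. In bulk RNA, fewer cycling cells and less of these transcripts per cycling cell cannot be told apart.

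The promoters of 5 genes that differed between the groups, and of Mcm6, which held the most E2F matches, are shown so that the letters counted over both sets can be seen in the genes that the results turn on. Each is the RefSeq window (build GRCm38.p6) of 300 bases from 250 before to 50 after the transcription start, read 5′ to 3′ on the strand of the gene. Capitals mark matches, on either strand, to an E2F motif (TTTCGCGC, TTTGGCGC, TTCCCGCC or TTCGCGCC), the CHR (TTTGAA), the CCAAT box (CCAAT) or the kappaB consensus of NF-kB. Overlapping E2F matches merge into 1 run of capitals.
Cdt1, chr8:122567765-122568064, + strand: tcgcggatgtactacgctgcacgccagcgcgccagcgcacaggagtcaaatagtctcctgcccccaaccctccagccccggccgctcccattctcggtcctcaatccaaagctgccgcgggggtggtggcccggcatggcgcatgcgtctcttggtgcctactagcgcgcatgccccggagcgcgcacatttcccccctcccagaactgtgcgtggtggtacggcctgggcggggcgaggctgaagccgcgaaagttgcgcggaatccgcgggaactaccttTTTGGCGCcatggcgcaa
Dtl, chr1:191575495-191575794, - strand: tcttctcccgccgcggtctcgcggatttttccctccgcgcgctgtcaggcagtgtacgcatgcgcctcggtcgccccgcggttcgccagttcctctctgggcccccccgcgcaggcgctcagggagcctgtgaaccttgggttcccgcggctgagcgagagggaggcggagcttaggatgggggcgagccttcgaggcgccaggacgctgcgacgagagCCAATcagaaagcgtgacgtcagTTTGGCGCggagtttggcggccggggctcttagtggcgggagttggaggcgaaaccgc
Mcm10, chr2:5012742-5013041, - strand: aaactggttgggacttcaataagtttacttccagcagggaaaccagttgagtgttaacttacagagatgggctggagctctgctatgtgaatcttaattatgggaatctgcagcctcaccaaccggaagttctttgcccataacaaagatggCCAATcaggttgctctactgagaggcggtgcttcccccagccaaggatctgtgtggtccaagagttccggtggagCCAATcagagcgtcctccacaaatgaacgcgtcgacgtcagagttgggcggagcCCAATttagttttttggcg
Mcm6, chr1:128359656-128359955, - strand: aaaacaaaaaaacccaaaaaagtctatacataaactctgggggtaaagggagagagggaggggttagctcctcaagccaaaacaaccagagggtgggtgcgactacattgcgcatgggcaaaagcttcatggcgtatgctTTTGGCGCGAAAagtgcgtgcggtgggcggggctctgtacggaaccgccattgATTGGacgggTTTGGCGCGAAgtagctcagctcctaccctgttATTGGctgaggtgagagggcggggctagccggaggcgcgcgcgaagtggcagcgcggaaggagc
Mki67, chr7:135716330-135716629, - strand: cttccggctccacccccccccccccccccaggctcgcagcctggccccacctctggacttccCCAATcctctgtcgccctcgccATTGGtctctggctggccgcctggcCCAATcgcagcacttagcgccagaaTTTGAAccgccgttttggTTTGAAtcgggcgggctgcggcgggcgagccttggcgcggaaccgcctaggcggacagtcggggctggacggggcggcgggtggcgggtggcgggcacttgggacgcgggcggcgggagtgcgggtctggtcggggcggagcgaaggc
Cdc25b, chr2:131186698-131186997, + strand: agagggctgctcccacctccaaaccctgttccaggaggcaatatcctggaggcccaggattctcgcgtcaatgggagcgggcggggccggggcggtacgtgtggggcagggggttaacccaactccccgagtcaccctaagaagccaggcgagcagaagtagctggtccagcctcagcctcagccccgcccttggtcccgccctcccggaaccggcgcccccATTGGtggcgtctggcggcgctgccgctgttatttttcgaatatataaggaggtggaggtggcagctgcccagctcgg

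An E2F match was the mark of the replication genes and a CHR that of the mitosis genes. Windows were held for 49 of the 59 genes, 23 of replication and 26 of mitosis. At least 1 E2F match stood in 14 of the 23 replication genes (60.9%) and in 1 of the 26 mitosis genes (3.85%, Cdk1), against 3.80% of the 27025 genes in the table. A CHR stood in 2 replication genes (8.70%) and in 19 mitosis genes (73.1%), against 20.2% of all genes. CCAAT boxes were found in 15 replication genes (65.2%) and in 23 mitosis genes (88.5%), against 41.1% of all genes. The kappaB consensus was found in Mcm7 alone among the replication genes and in Birc5 and Kif23 among the mitosis genes, and in 5.14% of all genes. Cdt1 and Dtl each held 1 E2F match, close to the start, whereas the Mcm10 window held 3 CCAAT boxes and no complete E2F match. It ends with TTTGGCG, the first letters of an E2F motif, so whether that motif is complete cannot be read from the window. The Mki67 window held 2 CHR and 3 CCAAT boxes. Cdc25b, the gene with the largest difference of all 59, held 1 CCAAT box and neither a CHR nor the kappaB consensus in this window. These are matches of letters and not measured binding.

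**Figure D1:**
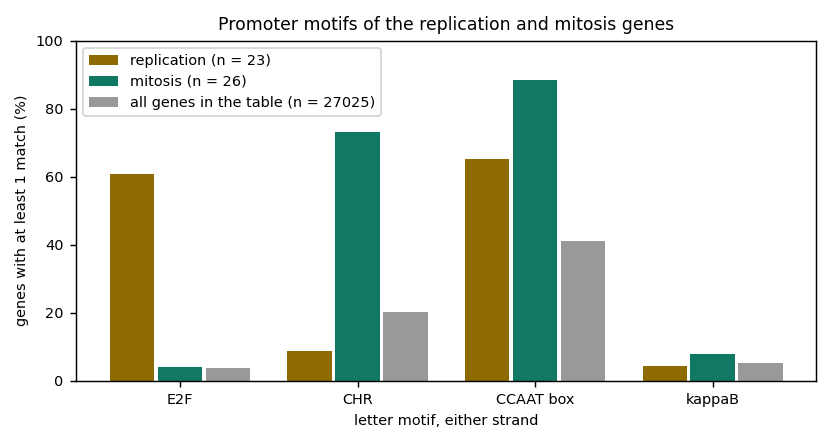
Share of genes (vertical axis, percent) whose promoter window held at least 1 match to each letter motif (horizontal axis), for replication genes, mitosis genes and all genes in the RefSeq table. E2F matches stand at 60.9% in replication genes and 3.85% in mitosis genes, and CHR matches at 8.70% and 73.1%.

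Library totals lay between 18574452 and 23162766 counts, and the 59 genes held between 1.08% and 1.42% of them. Map3k14 was at 177 and 192 CPM (counts scaled to the normalised size of each library) in caNIK replicates 1 and 2, against 30.2 and 25.1 in control replicates 1 and 2 (log2 fold change 2.74 ± 0.17, edgeR adjusted p = 0.00023). Reads of the inserted and the native copy cannot be told apart. In each group the replicates differed beyond counting error, with a chi-square of 44.95 per degree of freedom for the caNIK pair and 24.7 for the control pair. Nothing in the labels ties each library to its own animal. The spread behind the p-values is that between libraries, and part of it may be technical. All 12 stem and progenitor markers were detected in every library. Their sum was 2472 and 1874 CPM in caNIK replicates 1 and 2, against 3457 and 3081 CPM in control replicates 1 and 2. Over all tested genes, 13.8% were higher in caNIK and 8.21% lower at the threshold given below. Of the 12 stem and progenitor markers, 2 rose in caNIK (Ly6a and Gata2), 2 fell (Cd34 and Flt3) and 8 did not pass. Their log2 fold changes were 2.56 for Ly6a, 1.30 for Gata2, -2.66 for Cd34 and -2.64 for Flt3. Kit, also on this list, lay at 558 and 506 CPM in caNIK and 610.3 and 613 in control, and did not pass.

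Other lineages' markers differed between the groups and also within caNIK. The summed level of 8 erythroid markers was 1444 and 2398 CPM in caNIK replicates 1 and 2, against 306 and 618 in control. Of these 8, 3 rose (Alas2, Slc4a1 and Car1). The adult globin genes Hbb-b1 and Hba-a1 were listed at 0 in all libraries and so were not tested. How reads matching several genes were counted is not known, so these zeros cannot be read as absent transcripts. The 6 mast cell markers summed to 1554 and 809.6 CPM against 42.9 and 44.9, with 5 higher in caNIK. The 8 neutrophil markers summed to 297 and 409.9 CPM against 1185 and 2892, with 5 higher and 3 lower. Sums of the 8 monocyte and macrophage markers were 224 and 426 CPM in caNIK and 125 and 162 in control. Only 1 of them passed, Lyz2, with 98.5 and 273 CPM in caNIK against 54.3 and 51.3 CPM in control. The 7 megakaryocyte markers summed to 242 and 218 CPM against 82.6 and 168, with 2 higher (Ppbp and Itga2b) and 1 lower (Gp9). Itga2b alone was at 142 and 124 CPM in caNIK against 32.8 and 68.1 CPM in control. The lists of B lineage, T lineage, endothelial and epithelial markers each summed to at most 167 CPM in any library. Cycling differs between such lineages, and the part that their markers' differences play in the values below was not tested.

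Most of the 59 genes did not pass the threshold, while 4 replication genes fell and 2 mitosis genes rose in caNIK HSPC. The 4 were Cdt1, Gins2, Mcm10 and Dtl, and the 2 were Cdc25b and Mki67. The threshold was an adjusted p of 0.05 in the quasi-likelihood test of edgeR, and 22% of all 14191 tested genes passed it. In caNIK, 13.8% were higher and 8.21% lower. Of the 28 replication genes, 14.3% passed, all lower, and of the 31 mitosis genes 6.45%, all higher. The share that passed among all 59, 10.2%, was below the 22% of all genes. At an unadjusted p under 0.05 there were 6 lower and 1 higher replication genes, and 0 lower and 4 higher mitosis genes, against 15.3% lower and 20.4% higher over all tested genes. A log2 fold change above 0 was found for 7 of 28 replication genes and 18 of 31 mitosis genes, against 50.3% of all tested genes. Log2 fold changes were within 1.5-fold for 84.7% of the 59 genes, against 58.8% of all tested genes. The median was -0.21 for replication genes, 0.05 for mitosis genes and 0.00 for all tested genes. Both medians depended on the caNIK libraries: with caNIK replicate 1 left out they were 0.00 and 0.27 for replication and mitosis genes, and with caNIK replicate 2 left out -0.44 and -0.24.

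**Figure D2:**
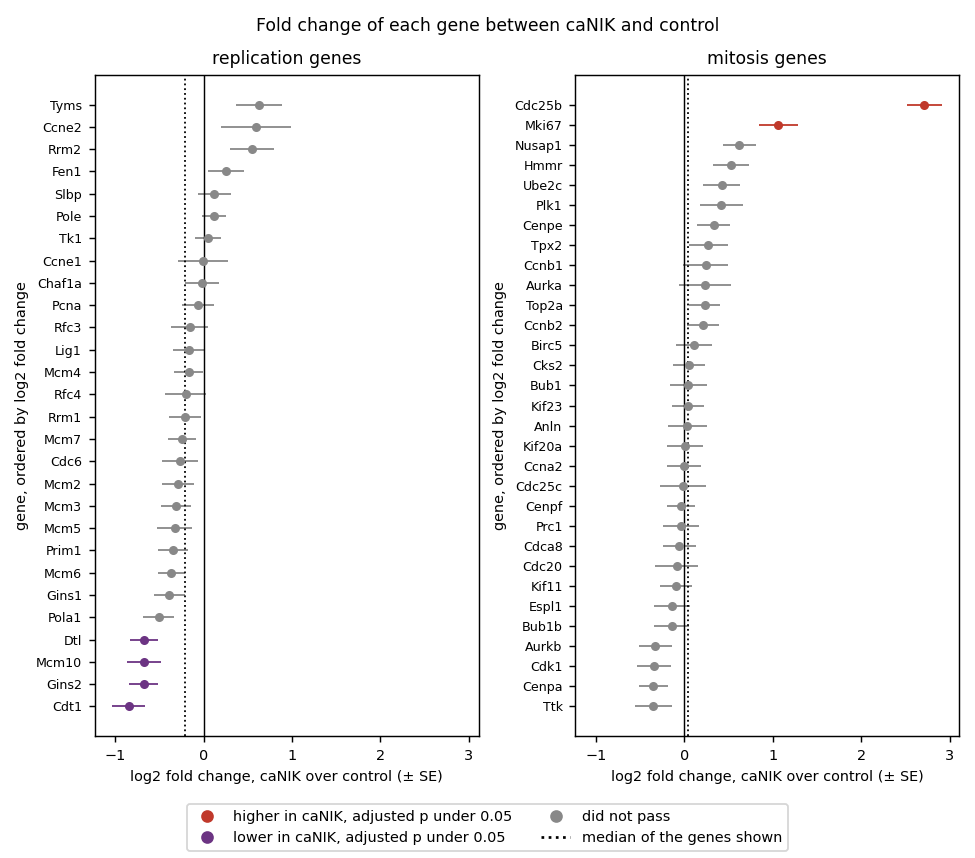
Log2 fold change of caNIK over control (horizontal axis) with its standard error for each replication gene (left) and each mitosis gene (right), ordered by size on the vertical axis. Red and purple points passed an adjusted p of 0.05 and grey points did not. With all 4 libraries the median is -0.21 for replication genes and 0.05 for mitosis genes (0.00 and 0.27 without caNIK replicate 1), and Cdc25b lies far to the right at 2.71.

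The 2 caNIK libraries differed from each other in nearly every gene of both sets. Replicate 2 lay above replicate 1 in 27 of 28 replication genes and in 31 of 31 mitosis genes, by a median of 0.43 and 0.46 on the log2 scale. Over all tested genes it lay above in 47%, with a median difference of -0.03. In control, replicate 2 lay above replicate 1 in 20 of 28 replication genes and 24 of 31 mitosis genes, by a median of 0.08 and 0.10, against 49.8% of all tested genes. Of the 59 genes, 21 replication and 22 mitosis genes had their lowest level in caNIK replicate 1, and 10 replication and 25 mitosis genes their highest in caNIK replicate 2. The median size of the log2 fold change between groups, with its sign left out, was 0.28 for replication genes and 0.21 for mitosis genes. Over all tested genes it was 0.44. These sizes come from 2 libraries a group, so they are not directly comparable with the differences between single libraries. Of the marker sums above, the erythroid, monocyte and macrophage, and neutrophil sums were higher in caNIK replicate 2 than in replicate 1. The stem and progenitor, mast cell and megakaryocyte sums were lower there. In control, the stem and progenitor sum was lower in replicate 2, and the other sums named here were higher. The erythroid sum was 306 and 618 CPM in control replicates 1 and 2, and the neutrophil sum, mostly Mpo, 1185 and 2892 CPM. Whether these differences bear on the 59 genes was not tested.

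**Figure D3:**
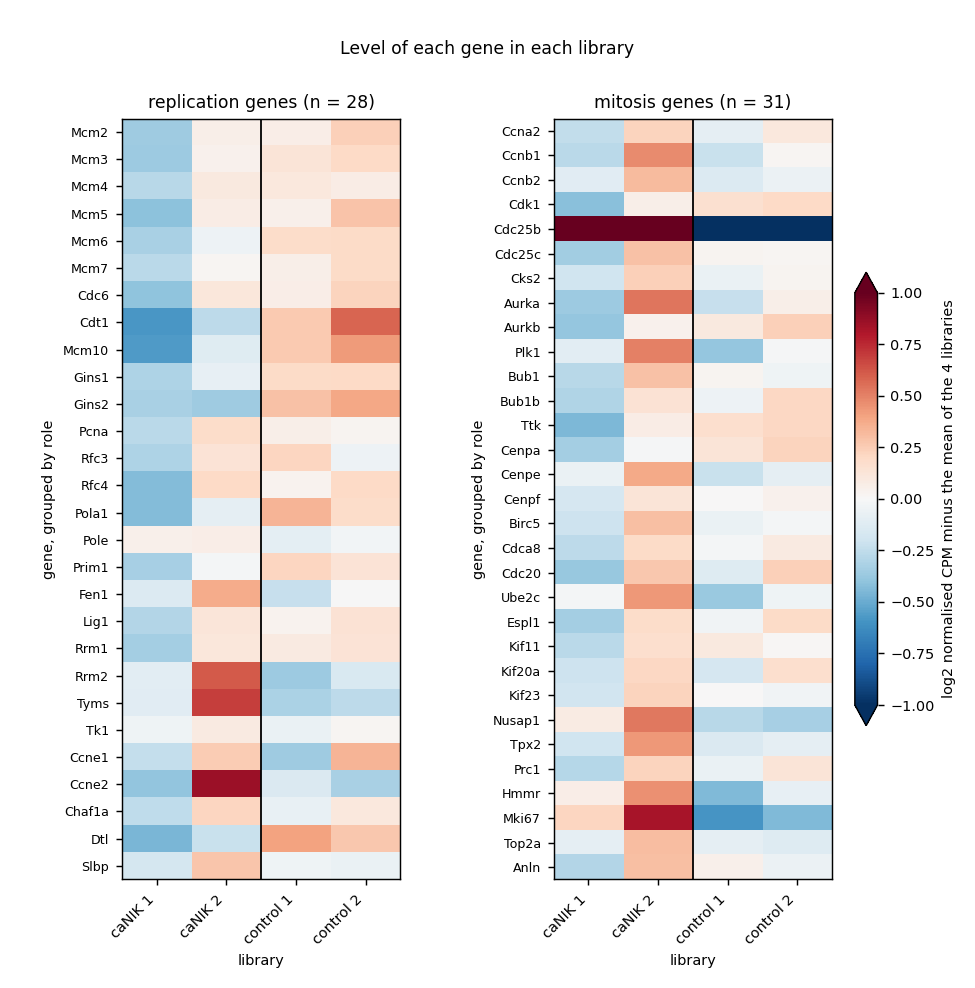
Level of each replication gene (left) and mitosis gene (right) in the 4 libraries, as log2 normalised CPM minus the mean of that gene over the libraries, by colour; columns are libraries and rows are genes grouped by role. The column of caNIK replicate 1 is mostly blue and that of caNIK replicate 2 mostly red in the mitosis genes. Values of Cdc25b lie beyond the colour scale.

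Among the licensing genes, all 8 had negative log2 fold changes and 1, Cdt1, passed. Cdt1 recruits the MCM helicase to origins and is normally destroyed once S phase begins. It was at 77.1 and 96.1 CPM in caNIK replicates 1 and 2, against 138 and 173 CPM in control replicates 1 and 2. Both caNIK libraries lay below both controls. Cdt1 fell to a mean of 86.6 ± 13.4 CPM in caNIK, against 156 ± 24.6 CPM in control (SD, n = 2 each). Its log2 fold change was -0.85 with a standard error (SE, given after ± for fold changes) of 0.19, at an edgeR adjusted p of 0.022. Dtl, the receptor of the CRL4 ubiquitin ligase that marks Cdt1 for destruction, fell as well, with 107 and 126 CPM in caNIK and 195 and 177 CPM in control (log2 fold change -0.67 ± 0.16, edgeR adjusted p = 0.025). With a library left out, 1 group holds a single library, whose spread is assumed to be that of the other group, so such calls say nothing of the variation within the single-library group. Cdt1 did not pass without caNIK replicate 1 (adjusted p = 0.050) or without control replicate 2 (0.093), nor Dtl without control replicate 1 (0.14) or control replicate 2 (0.059). Cdc6, which loads the helicase together with Cdt1, was at 66.5 and 95.3 CPM in caNIK and 92.3 and 103 CPM in control, and did not pass.

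The 6 subunits of the MCM ring, the replicative helicase, all had negative log2 fold changes, and none passed. Mcm2 stood at 319 and 425 CPM in caNIK and 428 and 482 CPM in control. Mcm3 had 304 and 403 CPM against 429 and 449.9 CPM. Mcm4 had 249.9 and 323 CPM in caNIK against 326 and 318 CPM in control. In Mcm2 and Mcm3 both caNIK libraries were below both controls, whereas in Mcm4 the groups overlapped. Mcm5 was at 293 and 411 CPM in caNIK and at 405 and 477 CPM in control. Mcm6 had 459.7 and 556 CPM in caNIK and 652 and 655 CPM in control. Mcm7 had 387 and 474 CPM in caNIK and 488 and 535 CPM in control. The groups overlapped in Mcm5 and were separate in Mcm6 and Mcm7. Log2 fold changes of the 6 ran from -0.36 ± 0.15 (Mcm6) to -0.17 ± 0.17 (Mcm4), with edgeR adjusted p from 0.14 to 0.52. Without caNIK replicate 2, the log2 fold changes of Mcm2, Mcm3, Mcm5 and Mcm6 ran from -0.61 to -0.53. Without caNIK replicate 1, those of all 6 subunits ran from -0.23 (Mcm6) to 0.01 (Mcm4). In both of these fits the spread comes from the control pair alone.

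The 3 genes that turn the loaded helicase into a moving fork had a median log2 fold change of -0.68. Mcm10, which is needed to start unwinding, was at 54.1 and 73.7 CPM in caNIK against 96.4 and 108 CPM in control. Gins2, a subunit of the GINS complex of the active helicase, was at 29.7 and 29.1 CPM against 45.5 and 48.6 CPM. Both fell, by 0.68 on the log2 scale with SE 0.19 for Mcm10 and 0.17 for Gins2 (edgeR adjusted p = 0.0496 and 0.031). Gins2 was the only replication gene in which caNIK replicate 2 was not above replicate 1. Its partner Gins1 was at 30.5 and 35.8 CPM in caNIK and 43.3 and 43.5 CPM in control, with separate groups, and did not pass (log2 fold change -0.39 ± 0.18, adjusted p = 0.17). Mcm10 did not pass with median-of-ratios scaling (adjusted p = 0.053), nor without caNIK replicate 1, control replicate 1 or control replicate 2, with adjusted p from 0.057 to 0.16. Gins2 lost its call whichever library was left out, with adjusted p from 0.051 to 0.18.

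No gene of the elongation machinery passed. Pcna, the sliding clamp, was at 402 and 552 CPM in caNIK and 504 and 493 CPM in control, with the controls inside the caNIK range (log2 fold change -0.06 ± 0.18, edgeR adjusted p = 0.84). The clamp loader genes Rfc3 and Rfc4 also overlapped between groups. Pola1, the catalytic subunit of the polymerase that lays down primers, had 113 and 143 CPM in caNIK and 192 and 173 CPM in control, with a log2 fold change of -0.51 ± 0.17 that missed the threshold (adjusted p = 0.081). Among the alternatives that kept all 4 libraries, Pola1 passed with library totals as the scaling (edgeR adjusted p = 0.044) and with the replicate number as a block (0.046). Its log2 fold change was -0.71 without caNIK replicate 2 and -0.34 without caNIK replicate 1. Pola1 stood at -0.45 without control replicate 1 and at -0.58 without control replicate 2. Its primase partner Prim1 stood at -0.35 ± 0.17 and Pole, the leading strand polymerase, at 0.12 ± 0.14. Fen1 and Lig1, which trim and join lagging strand fragments, stood at 0.25 ± 0.20 and -0.16 ± 0.18, with overlapping groups. Chaf1a, the histone chaperone that follows the fork, stood at -0.02 ± 0.19, and Slbp, which binds histone mRNA, at 0.12 ± 0.19.

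The 3 highest fold changes among replication genes were those of Tyms, Ccne2 and Rrm2, none of which passed, and all 3 leaned on caNIK replicate 2. Tyms, which makes thymidylate, was at 85.5 and 149.5 CPM in caNIK replicates 1 and 2, against 74.6 and 77.4 CPM in control (log2 fold change 0.63 ± 0.26, edgeR adjusted p = 0.14). Rrm2, the S phase subunit of ribonucleotide reductase, was at 204 and 336 CPM against 171 and 198 CPM (0.55 ± 0.25, adjusted p = 0.16). The groups were separate in both genes, but caNIK replicate 1 lay close to the controls. Rrm1, the other subunit of that enzyme, was at 362 and 494 CPM in caNIK and 486 and 504 CPM in control, with overlap. Ccne2, a partner of CDK2 at the start of S phase, was at 16.2 and 38.5 CPM in caNIK and 19.3 and 17.0 CPM in control. Ccne1, its paralog, was at 34.4 and 48.5 CPM against 31.7 and 51.3 CPM. Tk1, the salvage kinase for thymidine, stood at 0.05 ± 0.15. Without caNIK replicate 1, Rrm2, Tyms and Ccne2 passed as higher (adjusted p from 0.0072 to 0.020), again with the spread of the control pair alone.

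Cdc25b rose more than any other of the 59 genes. It encodes a phosphatase that removes inhibitory phosphates from CDK1 and so helps to start mitosis. Its level was 294 and 406 CPM in caNIK replicates 1 and 2, against 52.6 and 54.2 CPM in control replicates 1 and 2, with no overlap. The mean was 350.4 ± 79.1 CPM in caNIK and 53.4 ± 1.07 CPM in control (SD, n = 2 each), which is 6.56-fold higher by the fit (log2 fold change 2.71 ± 0.20, edgeR adjusted p = 0.00041). A larger log2 fold change was found for 1002 genes, 7.06% of all those tested. Cdc25b passed under all 12 alternatives, with log2 fold changes from 2.44 to 2.93. The other phosphatases of the family did not pass. Cdc25c was at 19.1 and 29.7 CPM in caNIK against 24.7 and 24.6 CPM in control (-0.01 ± 0.26). Cdc25a, which is not among the 59 and was looked up after the values of Cdc25b were seen, was at 91.8 and 99.6 CPM against 95.0 and 121 CPM (-0.17 ± 0.17).

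Mki67, whose protein Ki-67 coats mitotic chromosomes and is the usual stain for cycling cells, was the other mitosis gene that rose. It was at 1557 and 2373 CPM in caNIK and 894 and 987 CPM in control, with no overlap. The mean was 1965 ± 578 CPM in caNIK against 941 ± 65.7 CPM in control, with a log2 fold change of 1.06 ± 0.22 and an edgeR adjusted p of 0.016. Mki67 passed under all 12 alternatives, with log2 fold changes from 0.71, without caNIK replicate 2, to 1.34, without caNIK replicate 1. Top2a, the topoisomerase that untangles the copied chromosomes, did not pass, with 950.5 and 1257 CPM in caNIK and 952 and 928 CPM in control (0.23 ± 0.17, adjusted p = 0.39). In Top2a only caNIK replicate 2 stood apart from the other libraries.

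**Figure D4:**
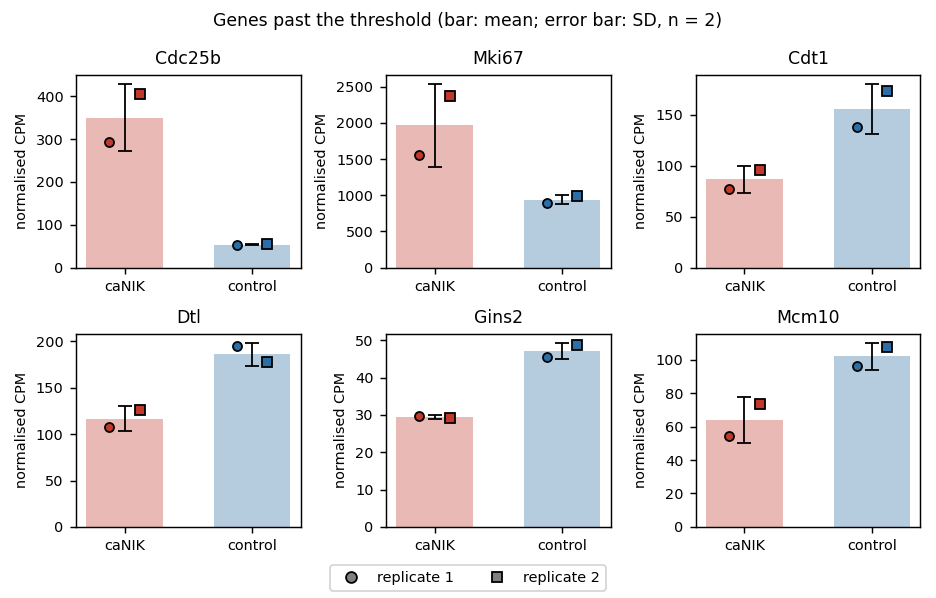
Normalised CPM (vertical axis, from 0) of the 6 genes past the threshold in caNIK and control (horizontal axis); bars are means, error bars are SD over n = 2, circles are replicate 1 and squares replicate 2. Cdc25b and Mki67 lie higher in both caNIK libraries, and Cdt1, Dtl, Gins2 and Mcm10 lower in both.

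CDK1 and its cyclins did not pass. Cdk1 was at 91.3 and 127 CPM in caNIK and 137 and 140.0 CPM in control, with both caNIK libraries below (log2 fold change -0.34 ± 0.19, edgeR adjusted p = 0.26). Ccnb1, the cyclin that carries CDK1 into mitosis, was at 145 and 242 CPM in caNIK against 149 and 177 CPM in control (0.24 ± 0.25). The controls lay between the caNIK libraries. Ccnb2 and Ccna2 stood at 0.21 ± 0.18 and 0.00 ± 0.19, and Cks2, a small subunit of the CDK complex, at 0.05 ± 0.19. Without caNIK replicate 2, and so with the spread of the control pair alone, Cdk1 passed as lower (-0.62, adjusted p = 0.037), the 1 mitosis gene to do so in any fit.

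The kinases, centromere proteins and anaphase genes gave no call. Plk1, the Polo kinase that acts from mitotic entry to cytokinesis, was at 111 and 169.9 CPM in caNIK and 91.6 and 119 CPM in control (log2 fold change 0.42 ± 0.24, edgeR adjusted p = 0.26). Of the Aurora kinases, Aurka, which builds spindle poles, stood at 0.24 ± 0.30 and Aurkb, of the chromosomal passenger complex, at -0.33 ± 0.19. The passenger subunits Birc5 and Cdca8 stood at 0.11 ± 0.20 and -0.05 ± 0.19. The lowest fold changes among mitosis genes were those of Ttk, Cenpa and Cdk1. Ttk, the kinase that starts the spindle checkpoint, was at 34.5 and 49.7 CPM in caNIK against 52.9 and 54.3 CPM in control (-0.35 ± 0.21, adjusted p = 0.29). Cenpa, the histone H3 variant that marks centromeres, was at 86.6 and 109 CPM against 120.3 and 128 CPM (-0.35 ± 0.17, adjusted p = 0.19). Both caNIK libraries were below both controls in these 2 genes. The checkpoint kinases Bub1 and Bub1b and the kinetochore proteins Cenpe and Cenpf ran from -0.14 (Bub1b) to 0.33 (Cenpe). Among anaphase genes, Ube2c, the ubiquitin-conjugating enzyme of the anaphase-promoting complex, stood at 0.42 ± 0.21, its activator Cdc20 at -0.09 ± 0.25, and separase, Espl1, which cuts cohesin, at -0.14 ± 0.21.

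Of the spindle genes, 2 came nearest to the threshold and none passed in the main edgeR fit. Nusap1, which bundles microtubules near chromosomes, was at 181 and 247 CPM in caNIK and 142 and 136 CPM in control (log2 fold change 0.62 ± 0.19, edgeR adjusted p = 0.056). Hmmr, a spindle-pole protein, was at 106 and 138 CPM in caNIK and 74.0 and 94.8 CPM in control (0.53 ± 0.20, adjusted p = 0.11). The groups were separate in both. The motors Kif11, Kif20a and Kif23, the microtubule factor Tpx2, the midzone protein Prc1 and the cytokinesis scaffold Anln overlapped between groups and ran from -0.09 (Kif11) to 0.27 (Tpx2). Nusap1 passed in DESeq2 (adjusted p = 0.016), with a filter of at least 1 read in any library (0.020) and without caNIK replicate 1 (0.0091). Leaving out caNIK replicate 1 gave 7 higher mitosis genes, which were Cdc25b, Mki67, Cenpe, Nusap1, Tpx2, Hmmr and Top2a.

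The level of both sets differed between the caNIK libraries, but the mitosis genes stood higher relative to the replication genes in both of them than in either control. Each gene's log2 CPM was centred on its mean over the libraries. The median over replication genes was then -0.32 and 0.09 in caNIK replicates 1 and 2, against 0.06 and 0.16 in control replicates 1 and 2. That over mitosis genes was -0.24 and 0.29 in caNIK against -0.07 and 0.02 in control. Mitosis minus replication thus came to 0.07 and 0.20 in caNIK and -0.13 and -0.14 in control, so both caNIK libraries lay above both controls. The summed counts of the mitosis genes were 1.29 and 1.39 times those of the replication genes in caNIK, against 0.906 and 0.923 times in control. This ratio within a library needs no scaling between libraries. Without the 6 genes past the threshold it was 0.952 and 0.996 in caNIK and 0.814 and 0.826 in control. The median log2 fold change of mitosis genes stood 0.25 above that of replication genes, and 0.21 to 0.36 above with any 1 library left out. This comparison was chosen after the values were seen, and as both sets were chosen with results known it carries no test. Both caNIK libraries lay below both controls in 11 of 28 replication genes and in 4 of 31 mitosis genes, against 31.6% of all tested genes, and above both in 3 and 6, against 33.3%.

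**Figure D5:**
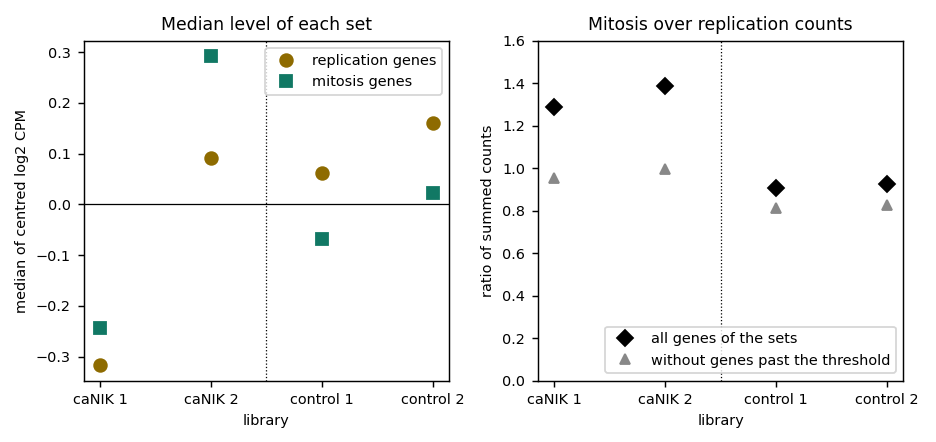
Left, median over genes of log2 CPM centred on each gene's mean (vertical axis) for replication genes (circles) and mitosis genes (squares) in each library (horizontal axis). Right, summed counts of mitosis genes over summed counts of replication genes in each library, with all genes (diamonds) and without the 6 past the threshold (triangles). The squares lie above the circles in both caNIK libraries and below them in both controls, and the ratios are higher in both caNIK libraries.

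Further genes of the 2 processes, from lists that share no gene with the 59, had similar medians in the same libraries, but genes passed in both directions in each list. Of 45 other replication genes, 4 fell, 2 rose and 39 did not pass, and their median log2 fold change was -0.22. The 13.3% that passed compare with 22% of all tested genes, of which 8.21% were lower and 13.8% higher. Both caNIK libraries lay below both controls in 24 of the 45 and above in 6, against 31.6% and 33.3% of all tested genes. At an unadjusted edgeR p under 0.05, 12 were lower and 4 higher, against 15.3% and 20.4% of all tested genes. Timeless, which protects stalled forks, was at 91.9 and 101 CPM in caNIK against 177 and 189.7 CPM in control (-0.93 ± 0.15, edgeR adjusted p = 0.0064). Dut and Ung, which keep uracil out of DNA, and Rnaseh2a, which removes RNA from it, fell by 0.71, 0.72 and 0.61 on the log2 scale. The risers were Donson, a factor of helicase activation, with 44.2 and 65.7 CPM against 27.3 and 24.3 CPM (1.09 ± 0.23), and Prim2, the large primase subunit (0.83 ± 0.21). Of 63 other mitosis genes, 3 rose, 1 fell and 59 did not pass (6.35% passed), with a median of 0.04. Both caNIK libraries lay below both controls in 17 of the 63 and above in 6, against the same 31.6% and 33.3% of all tested genes. At an unadjusted edgeR p under 0.05, 8 were lower and 4 higher, against 15.3% and 20.4%. The 31 mitosis genes above had 4 below, 6 above, 0 lower and 4 higher. Esco2, which acetylates cohesin, was at 68.6 and 75.3 CPM against 37.7 and 38.9 CPM (0.91 ± 0.15, adjusted p = 0.0085). Gtse1, a microtubule protein, and the kinase Melk rose by 1.05 each, with SE 0.25 and 0.27, and the kinase Pbk fell by 0.68. Timeless, Donson and Esco2 passed under all 12 alternatives. The other 7 lost the call without at least 1 of the libraries, with adjusted p up to 0.18. In these lists the median centred level of mitosis minus replication genes was 0.01 and 0.24 in caNIK and -0.13 and -0.09 in control.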

How the data were processed

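RNA-seq read counts of 4 libraries, 2 caNIK and 2 control, were analysed. The authors deposited whole-number counts for each gene symbol, which were not normalised. Tools listed in the submitters' processing notes, without their roles, were TopHat2 2.1.0 and featureCounts 1.5.0, with FastQC and DESeq2 1.10.1, and the build was mm9. No source used here gives the annotation, strand or multiple-match settings, and reads shared with pseudogene copies or antisense genes cannot be told apart. Groups came from sample titles.

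Counts were fitted in R 4.3.3 with edgeR 4.0.16. Genes passing filterByExpr (14191) were scaled with TMM (trimmed mean of M values) factors, fitted by glmQLFit with group as the only term and tested by the two-sided glmQLFTest. P-values were adjusted (Benjamini-Hochberg) over all tested genes, with a threshold of 0.05. Levels are TMM-normalised CPM, and SE come from the F statistic. Log2 levels of single libraries used a prior count of 2. The fit was also run on 3 simulated data sets with 200 changed genes, whose outcome is not given and on which no result here rests. Alternatives were DESeq2 1.42.0, limma-voom (limma 3.58.1), other scalings and filters, a replicate block and each library left out. The members, lists and tests were chosen with earlier results of these data known. Any of the 59 genes could be named. Values in every library were to be given for genes past the threshold, Mcm2 to Mcm7, Pcna, Rrm2, Ccne1, Ccne2, Mki67, Top2a, Cdk1, Ccnb1, Plk1 and the 3 highest and 3 lowest fold changes of each set. Library values of Cdc6, Gins1, Pola1, Rrm1, Hmmr and Cdc25c were added after they were seen. From the lists of other genes, those past the threshold were named. Promoter windows came from a RefSeq table of GRCm38.p6, matched by symbol. A further marker on the erythroid list is not reported here. The promoter build differs from mm9, and no count was placed by coordinate.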

Additional observations from a re-analysis of the deposited data

How the results depend on the processing

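Under DESeq2, limma-voom, 3 other scalings, 2 other filters and the replicate block, the 6 calls among the 59 genes were kept, except Mcm10 with median-of-ratios scaling. Leaving out 1 library gave 0 to 3 higher and 0 to 9 lower replication genes, and 2 to 7 higher and 0 to 1 lower mitosis genes. Among other replication genes it gave 1 to 4 higher and 1 to 9 lower, and among other mitosis genes 1 to 8 higher and 0 to 5 lower. Other replication genes had 4 higher with at least 1 read in any library, and 7 lower with upper-quartile factors and 9 with library totals. Other mitosis genes had 4 lower in DESeq2 and with upper-quartile factors, and 5 lower with library totals and with at least 1 read in any library. The cause of these moves was not tested. The median of mitosis genes minus that of replication genes was 0.21 to 0.36 with a library left out, 0.25 under each other alternative, and 0.20 without the genes past the threshold. The median of mitosis genes lay at -0.03 with upper-quartile factors or library totals. That of replication genes lay between -0.44 and 0.00 with a library left out. No called gene changed direction in any alternative.

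The replicate numbers are not stated to pair the libraries, and deviations of same-numbered libraries correlated at 0.21 across 14191 genes. With the replicate number as a block, 1 replication gene was higher (Rrm2), 5 were lower (Pola1 added, adjusted p = 0.046) and 5 mitosis genes were higher, with Nusap1 (0.026), Hmmr (0.020) and Ube2c added. Among other genes the block gave 4 higher and 10 lower for replication and 5 lower for mitosis, and over all genes 4260 calls against 3129. With 2 libraries a group, 53 of the 59 genes did not pass, which does not show that they were equal.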
